A study of Mus musculus with 4 samples.

Results

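Catalase, the peroxiredoxins, superoxide dismutases, glutathione peroxidases and their partners were followed in mouse intestinal crypts that had lost Yy1. The set lists 10 genes (Cat, Prdx3, Prdx5, Prdx6, Sod1, Sod2, Gpx1, Gpx2, Txnrd2 and Nfe2l2), and its members are all probe sets that the platform annotation ties to 1 of these genes and to no other. Each such set combines several short oligonucleotides that read the same transcript. Of 45101 probe sets on the array, 20 met this rule, and they covered 8 of the 10 genes. No probe set was named for Prdx5 or Prdx6 in the annotation used, so these 2 genes were not analysed here. Sod1 had 5 probe sets, Sod2 and Txnrd2 4 each, Cat and Nfe2l2 2 each, and Prdx3, Gpx1 and Gpx2 1 each.

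The arrays measured total RNA of jejunal crypt epithelium, freed with EDTA. The knockout group held 2 arrays from YY1f/f; Vil-Cre-ERT2 mice, in which a tamoxifen-inducible Cre recombinase under the Villin promoter of the intestinal epithelium removes floxed Yy1, and the tamoxifen label reads 4 days. The control group held 2 arrays from mice labelled only as control. Both groups carry the strain label C57BL/6J enriched. All arrays share 1 treatment sentence that names both kinds of mice and tamoxifen, and it can be read with the drug given to both or to the knockout mice only. Whether controls carried Cre is not stated. The titles call the replicates biological, and the sources used here give no age or sex.

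Reactive oxygen species are disarmed in steps. Superoxide dismutases turn superoxide into hydrogen peroxide, SOD1 mainly in the cytosol and SOD2 in the mitochondrial matrix. Catalase in peroxisomes, glutathione peroxidases and peroxiredoxins then remove the peroxide. Glutathione and thioredoxin supply the electrons and are themselves restored with NADPH, thioredoxin by thioredoxin reductases such as the mitochondrial TXNRD2. NFE2L2 (NRF2) is the transcription factor that switches on many of these genes under oxidative or electrophilic stress, and KEAP1 holds it back. In the intestine GPX2 is the glutathione peroxidase typical of the epithelium, where it is strong in crypts.

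Values are the deposited linear intensities. Differences are knockout minus control on log2(intensity + 16), with the standard error (SE) of limma's moderated fit across 45037 probe sets. A probe set was called at a Benjamini-Hochberg adjusted p under 0.05 over all of them. Group means are given ± SD with n = 2 arrays a group. For any single value an exact permutation test of 2 arrays against 2 cannot give a two-sided p below 0.333, so calls rest on the spread shared across probe sets.

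Yy1 checked the labels: its brightest probe set read 69.4 and 68.1 in the knockout arrays, against 1648 and 1681 in the control arrays, and all 4 of its probe sets were called lower. Their position relative to the floxed region was not looked at. The medians over 27 Bacillus control probe sets, a measure of background, lay between 31.9 and 35.6, and all 20 probe sets of the antioxidant genes lay above this range in every array. The Gapdh control probe sets read higher at the 3' end than at the 5' end by 1.71 and 1.65 (log2) in knockout arrays and by 1.44 and 1.40 in control arrays. This sign of RNA quality moved with the groups, and its part in the results below was not tested. The crypt and epithelial markers Vil1, Cdh1, Epcam, Krt8, Krt19, Lyz1, Olfm4 and Mki67 all read 3218 or more in every array. Of these 8, Olfm4, a marker of crypt base stem cells, was called lower (-0.62 ± 0.10, adjusted p = 0.00581 in limma's fit over genes) and kept this call without any 1 array. Vil1 was also lower (-0.53 ± 0.15, adjusted p = 0.0465) but kept its call in 1 of the 4 fits without 1 array. The other 6 were not called.

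The promoters of Cat and Prdx3, the genes with the largest differences, and of Gpx1, whose difference was closest to 0, are shown as the 250 bases before the RefSeq gene start (build GRCm38.p6), each 5' to 3' on the strand of the gene. Cat lies on the minus strand at chr2:103485154-103485403, Prdx3 on the minus strand at chr19:60874539-60874788 and Gpx1 on the plus strand at chr9:108338830-108339079. Capitals mark matches to the motifs listed after them.
Cat: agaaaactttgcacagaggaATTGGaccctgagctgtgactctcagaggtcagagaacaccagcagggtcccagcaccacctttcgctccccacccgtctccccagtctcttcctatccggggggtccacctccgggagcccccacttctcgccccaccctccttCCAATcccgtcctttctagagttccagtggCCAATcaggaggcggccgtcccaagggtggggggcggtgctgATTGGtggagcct
Prdx3: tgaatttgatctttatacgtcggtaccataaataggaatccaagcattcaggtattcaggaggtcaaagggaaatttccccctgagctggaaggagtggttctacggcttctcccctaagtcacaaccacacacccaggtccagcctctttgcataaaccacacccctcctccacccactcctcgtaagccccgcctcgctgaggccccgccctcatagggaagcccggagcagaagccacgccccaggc
Gpx1: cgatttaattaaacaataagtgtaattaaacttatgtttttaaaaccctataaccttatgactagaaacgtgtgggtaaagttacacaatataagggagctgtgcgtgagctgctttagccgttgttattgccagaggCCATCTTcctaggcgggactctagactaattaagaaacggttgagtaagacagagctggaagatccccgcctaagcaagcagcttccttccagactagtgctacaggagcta

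A promoter was in the RefSeq table for 9 of the 10 genes, all but Prdx6, and each was searched on both strands in a window of 300 bases, 50 of them after the start. The letters searched were ATGGCG and CCATNTT (cores of the Yy1 motif), TGACNNNGC (core of the antioxidant response element bound by NFE2L2), CCAAT (the CCAAT box) and AAGGTCA (a nuclear receptor site of the single-repeat kind). Over all 32851 promoters of the table, 8.93% held ATGGCG, 16.1% CCATNTT, 12.4% TGACNNNGC, 37.4% CCAAT and 4.72% AAGGTCA. The Cat window held CCAAT 4 times. None of these letters was in the Prdx3 window. Gpx1 held CCATNTT at -112 to -106 from the start. ATGGCG was found in Txnrd2, at 29 to 34 after the start, and in Nfe2l2, at -234 to -229, where it overlaps a match to TGACNNNGC. Sod1 also held TGACNNNGC, Gpx2 AAGGTCA, and Gpx2, Sod1 and Sod2 CCAAT once each. A match says only that the letters are there, and binding was not measured.

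Catalase and mitochondrial peroxiredoxin 3 were lower in knockout crypts by more than any other member, to 36.5% and 47.6% of their control means. The superoxide dismutases and Gpx1 stayed close to their control levels. Gpx2, Nfe2l2 and some Txnrd2 probe sets read moderately lower, near the threshold of the test. Of the 20 probe sets 4 were called lower and 0 higher by limma, against 9.09% lower and 10.9% higher of all probe sets (20.0% in all), and 8 of the 20 had an unadjusted p under 0.05. The groups did not overlap in 15 of the 20, 11 of them with knockout lower and 4 with knockout higher, where 59.9% of all probe sets did not overlap. The median log2 difference was -0.09 over the 20 and 0.01 over all probe sets.

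**Figure D1:**
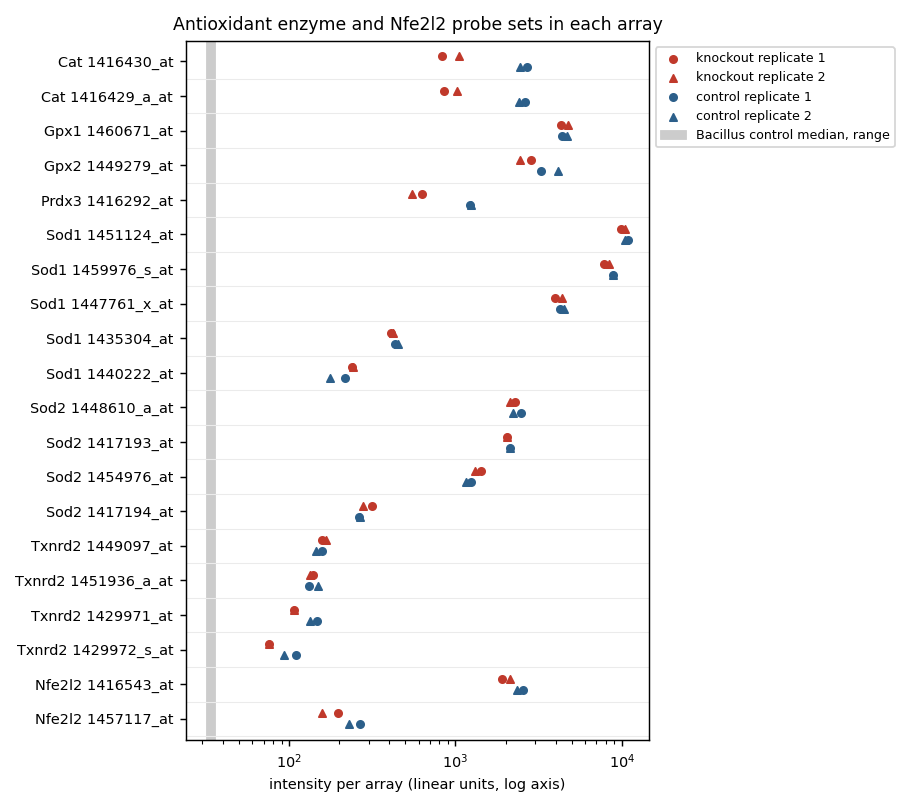
Intensity (log axis) of each probe set in each array, knockout above control within a row, circles for replicate 1 and triangles for replicate 2. The grey band is the range of the Bacillus control medians. The Cat and Prdx3 rows show the widest gaps between groups, while the groups overlap for Gpx1 and for 3 superoxide dismutase probe sets.

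Catalase breaks hydrogen peroxide down to water and oxygen and is the marker enzyme of peroxisomes. Its brighter probe set read 829 and 1049 in the knockout arrays, against 2698 and 2447 in the control arrays. The knockout arrays were both far below both controls, and knockout replicate 1 was the lowest. The means were 939 ± 156 in knockout and 2572 ± 177 in control (log2 difference -1.45 ± 0.14, 2.72-fold lower, limma adjusted p = 0.00119). The other Cat probe set, which the annotation ties to the same sequence record, read 851 and 1019 in knockout and 2604 and 2397 in control (-1.41 ± 0.12, adjusted p = 0.000924). In rank from the lowest difference, these stood at 371 and 402 of 45037. Both stayed called in every fit that left out 1 array, with differences between -1.61 and -1.28 over all alternatives.

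Prdx3 is the peroxiredoxin of the mitochondrial matrix, where it reduces hydrogen peroxide with electrons from thioredoxin 2. It read 625 and 549 in knockout arrays, against 1222 and 1244 in control arrays. The groups were well apart, and here knockout replicate 2 was the lower one. The means were 587 ± 53.5 in knockout and 1233 ± 15.8 in control (-1.05 ± 0.11, 2.08-fold lower, adjusted p = 0.00151). It stayed called without any 1 array, with differences between -1.14 and -0.96 over all alternatives. Both Cat and Prdx3 lie well above the background measure, so their folds are little affected by the pseudocount.

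Gpx2, the epithelial glutathione peroxidase, read 2849 and 2443 in knockout arrays, against 3288 and 4152 in control arrays. The groups did not overlap, but the 2 controls lay farther apart than the gap between the groups. The means were 2646 ± 287 and 3720 ± 611, 71.1% of control (-0.48 ± 0.14, 95% interval -0.82 to -0.15, adjusted p = 0.0525), so it missed the threshold among all probe sets. In the fit on 1 probe set per gene, over 18193 genes, it passed at an adjusted p of 0.0471, and in 6 of 13 alternatives to that fit (adjusted p 0.0314 to 0.252). Its call moved with single arrays: the probe set passed without control replicate 1 (-0.65, adjusted p = 0.0477) and did not without control replicate 2 (-0.32, adjusted p = 0.264).

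Gpx1, the widely expressed glutathione peroxidase of cytosol and mitochondria, read 4298 and 4750 in knockout arrays and 4395 and 4695 in control arrays. The knockout arrays enclosed both controls. The difference was -0.01 ± 0.11 (95% interval -0.26 to 0.24, adjusted p = 0.973), which leaves room for a change of this size in either direction.

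Sod1, the copper and zinc superoxide dismutase, was bright and close in both groups. Its brightest probe set read 9842 and 10496 in knockout arrays, against 10937 and 10409 in control arrays, with overlapping groups (-0.07 ± 0.10, 95% interval -0.31 to 0.17). The next 3 had differences between -0.12 and -0.06. The dimmest read 237 and 241 in knockout arrays, against 216 and 175 in control arrays, the only Sod1 probe set with a positive difference (0.27 ± 0.12, adjusted p = 0.168). None of the 5 was called, and the adjusted p lay between 0.168 and 0.751.

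Sod2, the manganese superoxide dismutase of mitochondria, was split in direction and called in none of its 4 probe sets. The brightest read 2270 and 2133 in knockout arrays and 2468 and 2230 in control arrays (-0.09 ± 0.11, 95% interval -0.34 to 0.16). The second gave -0.05 ± 0.10. The other two were higher in both knockout arrays than in both controls, by 0.19 ± 0.11 and 0.15 ± 0.11, with adjusted p of 0.272 and 0.401. Of the 4, 3 are tied to the same sequence record, so they are not independent readings.

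Txnrd2, the mitochondrial thioredoxin reductase that serves the Prdx3 system, was dim and its probe sets disagreed. The brightest read 158 and 166 in knockout arrays, against 157 and 144 in control arrays (0.09 ± 0.10, adjusted p = 0.590), and the second gave -0.04 ± 0.11. The other two, tied to a sequence record they share, were lower. One read 106 and 107 in knockout arrays, against 147 and 134 in control arrays (-0.35 ± 0.10, adjusted p = 0.0487). The other read 75.4 and 75.0 in knockout arrays, against 110 and 92.4 in control arrays (-0.36 ± 0.11, adjusted p = 0.0637). The call of the first of these was lost without each of the 4 arrays in turn (adjusted p 0.105 to 0.244), so no direction is given for the gene. Which transcripts the probe sets detect was not analysed here.

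Nfe2l2, the transcription factor NRF2, read 1904 and 2114 in knockout arrays, against 2551 and 2361 in control arrays. The groups did not overlap, and knockout replicate 1 was the lowest. The difference was -0.29 ± 0.11 (95% interval -0.54 to -0.04, adjusted p = 0.109). Its dimmer probe set read 197 and 158 in knockout arrays, against 266 and 228 in control arrays (-0.45 ± 0.13, adjusted p = 0.0552). Both read lower in both knockout arrays and neither was called. In limma's fit over genes Nfe2l2 was not called (adjusted p = 0.0951). It was called lower in 2 of 13 alternatives to that fit, with the trended prior and with the mean of both probe sets (-0.37, adjusted p = 0.0305). Without knockout replicate 1 the dimmer one passed (-0.59, adjusted p = 0.0438).

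**Figure D2:**
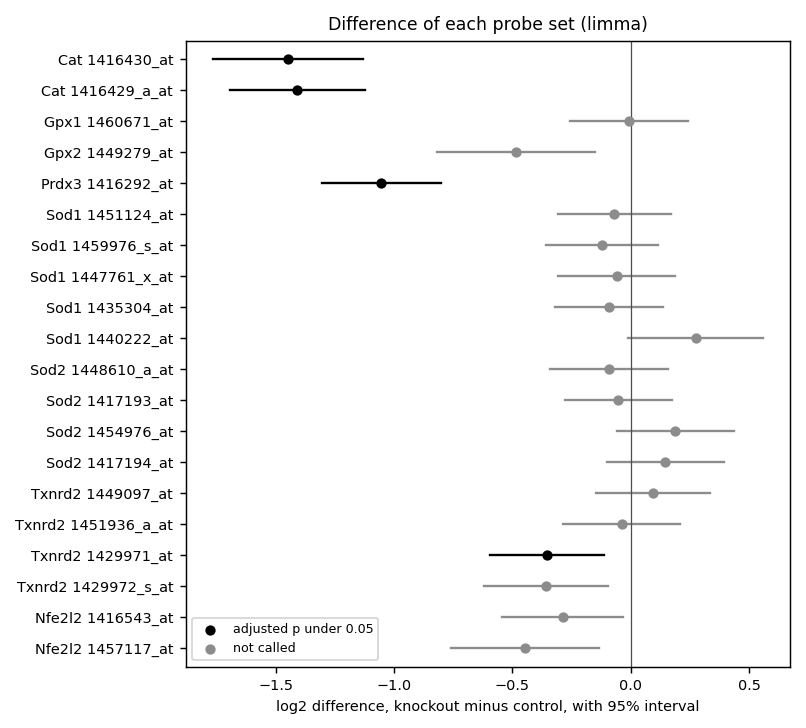
Log2 difference of each probe set, knockout minus control, with its 95% interval from limma. Black points were called. The Cat and Prdx3 intervals lie below -0.80, while those of Gpx1, Sod1 and Sod2 all cross 0.

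The wider antioxidant system was read from 11 lists of related genes, each gene by its brightest probe set. Of 190 measured genes that are not members, 52 were called lower and 28 higher, against 10.9% lower and 13.4% higher of all 18193 genes (24.4% in all). These counts were 31 lower and 17 higher without knockout replicate 1, 52 and 26 without knockout replicate 2, 26 and 18 without control replicate 1, and 31 and 15 without control replicate 2. Of the called genes, 22 lower and 13 higher stayed called in each of the 4 fits that left out 1 array. Genes described as steady below are these. The word covers left-out arrays only, and not every probe set of a called gene was called.

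**Figure D3:**
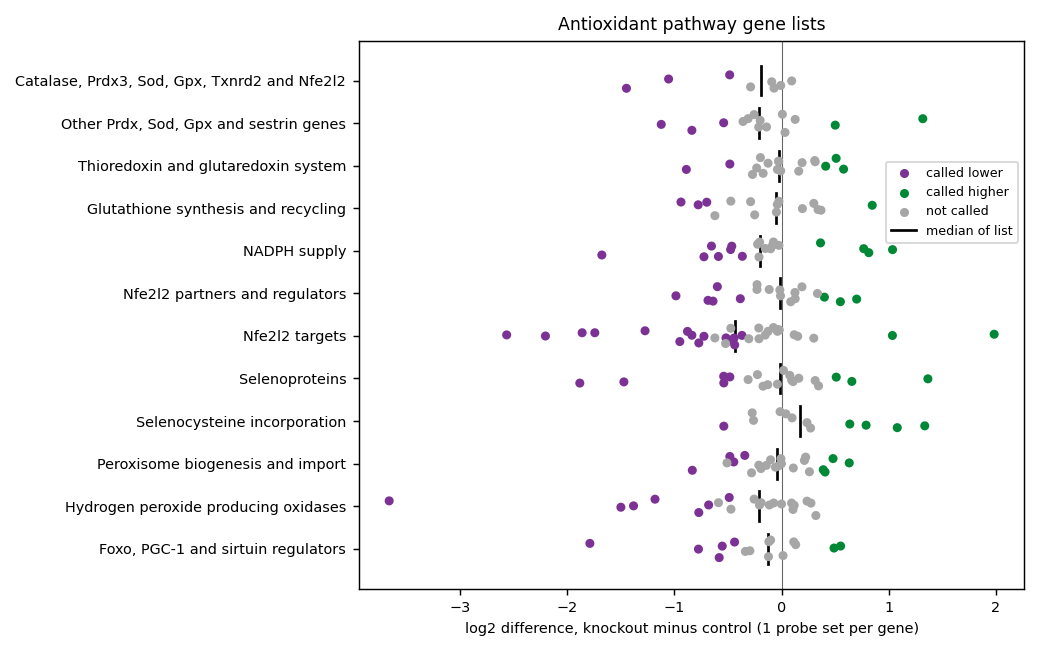
Log2 difference of every measured gene, knockout minus control, by list, with the median of each list as a bar. The members are on the top row, where Cat, Prdx3 and, in this fit over genes at an adjusted p of 0.0471, Gpx2 were called. The targets of Nfe2l2 have the lowest median, -0.44.

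Among the enzymes closest to the members (other peroxiredoxins, superoxide dismutases, glutathione peroxidases and the sestrins), 3 of 14 were called lower and 2 higher (median -0.21, against 0.01 over all genes). Srxn1, sulfiredoxin, which revives over-oxidised peroxiredoxins, read 1311 and 1789 in knockout arrays, against 2742 and 2752 in control arrays (-0.84 ± 0.15, adjusted p = 0.00824), steady and called with all 4 of its probe sets. Sesn2, a stress-induced sestrin, rose steadily by 1.32 ± 0.15, while its relative Sesn1 was lower by log2 -1.12 ± 0.25 and lost its call without either control. Prdx4, the peroxiredoxin of the endoplasmic reticulum, was higher by 0.50 ± 0.10 and Gpx3, the secreted glutathione peroxidase, was lower (-0.54 ± 0.12). Both lost their call in at least 2 of the 4 fits without 1 array. Prdx2 (-0.21 ± 0.10, adjusted p = 0.182) and Gpx4, which reduces lipid peroxides (-0.31 ± 0.11, adjusted p = 0.0859), were not called. No probe set named Prdx1 and no other gene, so Prdx1 was not analysed here.

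In the thioredoxin and glutaredoxin system 2 of 18 genes were lower and 3 higher (median -0.03). Glrx, the cytosolic glutaredoxin, fell steadily (-0.89 ± 0.14). Glrx5 and Glrx2, the mitochondrial glutaredoxins, were higher by 0.58 ± 0.10 and 0.41 ± 0.10, Txnl1 was higher by 0.51 ± 0.11, and Msrb1, a methionine sulfoxide reductase, was lower (-0.48 ± 0.10). These last 4 were not steady. Txn1 (-0.03 ± 0.10) and the cytosolic reductase Txnrd1 (-0.04 ± 0.10) were close to 0. Txn2, the mitochondrial thioredoxin that reduces PRDX3, read 1073 and 956 in knockout arrays, against 846 and 783 in control arrays (0.31 ± 0.11, adjusted p = 0.0804). Unlike Prdx3, it was higher in both knockout arrays, though not called.

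Of 15 genes of glutathione synthesis and recycling 3 were lower and 1 higher (median -0.05). Hagh, a glyoxalase (-0.94 ± 0.12), and Slc3a2, the heavy chain of amino acid exchangers including the cystine carrier (-0.78 ± 0.14), fell steadily. Chac1, which degrades glutathione, rose steadily (0.85 ± 0.12). Oplah, 5-oxoprolinase, was lower without being steady (-0.70 ± 0.14). The rate-limiting ligase subunits Gclc (-0.47 ± 0.16, adjusted p = 0.0769) and Gclm (-0.62 ± 0.21, adjusted p = 0.0782) were not called, and Gsr, which recycles oxidised glutathione, gave -0.04 ± 0.10.

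Of 19 genes listed for NADPH supply, not all of which make NADPH themselves, 7 were lower and 4 higher (36.8% and 21.1%, median -0.20). The falls were led by Aldh1l1, the folate enzyme that makes NADPH in the cytosol, at 302 ± 63.5 in knockout against 994 ± 101 in control (-1.68 ± 0.15). The malic enzyme Me1 (-0.72 ± 0.12) and the mitochondrial NAD kinase Nadk2 (-0.59 ± 0.10) also fell steadily. Mthfd2 (1.03 ± 0.14), Mthfd1l (0.81 ± 0.12) and Mthfd1 (0.77 ± 0.12), enzymes of folate one-carbon metabolism, rose steadily. Their relative Mthfd2l was higher without being steady (0.36 ± 0.10). By probe set, only 1 of 2 for Aldh1l1, 1 of 4 for Nadk2 and 1 of 4 for Mthfd2l were called.

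Targets of Nfe2l2 were lower in 15 of 33 genes (45.5%) and higher in 2 (6.06%), with a median of -0.44 against 0.01 over all genes. The list holds Srxn1 and Me1, given above. Several glutathione S-transferases fell. Gstm3 read 636 ± 292 in knockout against 3657 ± 527 in control (-2.56 ± 0.28), and Gstm2 (-1.86 ± 0.15) and Gstm1 (-1.74 ± 0.18) fell as well. Gsta3, named after its value was seen, had a difference of -2.20 ± 0.31, between those of Gstm3 and Gstm2. These are members of gene families with similar sequences, which may share signal between probe sets. Cbr1, a carbonyl reductase, also fell (-0.95 ± 0.11). Against this direction, the epoxide hydrolase gene Ephx1 (1.98 ± 0.12) and the efflux pump gene Abcc1 (1.03 ± 0.11) rose. Each of these 7 was steady. The textbook targets Nqo1 (-0.31 ± 0.12, adjusted p = 0.111) and Hmox1 (0.15 ± 0.10, adjusted p = 0.328) were not called. Of 18 partners and regulators of Nfe2l2, 5 were lower and 3 higher and none was steady. Lower were the repressor Bach1 (-0.60 ± 0.16), its relative Bach2 (-0.69 ± 0.18), the kinase Prkcd (-0.98 ± 0.18), the ubiquitin ligase subunit Btrc (-0.64 ± 0.12) and the coactivator Crebbp (-0.38 ± 0.09). Higher were Cand1 (0.55 ± 0.10), the ubiquitin ligase gene Rbx1 (0.40 ± 0.11) and the mitochondrial phosphatase Pgam5 (0.70 ± 0.16). By probe set, only 1 of 5 for Btrc and 1 of 4 for Cand1 were called. Keap1 itself gave 0.19 ± 0.11 (adjusted p = 0.281).

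Gpx1, Gpx2 and Txnrd2 are selenoproteins, whose active site holds selenocysteine. Of 20 other selenoprotein genes 5 were lower and 3 higher (median -0.01). Dio1, a thyroid hormone deiodinase, fell steadily (-1.88 ± 0.14), and the redox proteins Selenoh (1.36 ± 0.10) and Selenow (0.66 ± 0.10) rose steadily. Selenok, of the endoplasmic reticulum, was higher without being steady (0.51 ± 0.09), and Gpx3 and Msrb1 are given above. Selenop, the selenium carrier, was at 2846 ± 1487 in knockout against 7358 ± 72.4 in control (-1.47 ± 0.31) and lost its call without either control. Of 12 genes for making and inserting selenocysteine, 4 were higher and 1 lower. Lrp8, a receptor for the selenium carrier (1.34 ± 0.13), Trnau1ap (1.08 ± 0.11) and the kinase Pstk (0.79 ± 0.11) rose steadily, while the seryl-tRNA synthetase Sars (0.64 ± 0.11) was higher without being steady. Sephs2, the selenophosphate synthetase, was lower (-0.54 ± 0.10) but missed the threshold without control replicate 1.

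Catalase works beside the peroxide-making oxidases of the peroxisome. Of 21 measured genes listed for hydrogen peroxide producing oxidases, 7 were lower (33.3%) and 0 higher. Not all of the listed genes encode oxidases themselves, and not all of them belong to the peroxisome. Maob, a monoamine oxidase of the mitochondrial outer membrane, read 74.2 and 122 in knockout arrays, against 1635 and 1188 in control arrays (-3.66 ± 0.22). Maoa fell by 1.18 ± 0.19 on the log2 scale, and the peroxisomal oxidases Pipox (-1.38 ± 0.14) and Dao (-0.77 ± 0.10) also fell. Duoxa2, the maturation factor of the dual oxidase DUOX2, fell as well (-1.50 ± 0.24). These 5 were steady. Hao2 was called lower too, but at 7.04 ± 0.629 and 21.5 ± 9.43 it lay under the background measure. Genes for building peroxisomes and importing into them were mixed, with 4 of 22 lower and 4 higher (median -0.04). Pex19, a carrier of peroxisomal membrane proteins, fell steadily (-0.83 ± 0.10), and Pex5, the receptor that brings most matrix enzymes into peroxisomes, was lower without being steady (-0.48 ± 0.10). The transporters Abcd3 (-0.45 ± 0.11) and Abcd4 (-0.34 ± 0.10) were lower, and the import receptor Pex7 (0.41 ± 0.10), the carrier Slc25a17 (0.39 ± 0.10) and the membrane protein Pxmp4 (0.48 ± 0.13) were higher, none of them steadily. Mpv17, counted in this list but a protein of the mitochondrial inner membrane, rose steadily (0.63 ± 0.11), with 1 of its 2 probe sets called. By probe set, 1 of 2 was also called for each of Pex5, Slc25a17 and Pxmp4, and 0 of 2 for Abcd4.

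Among 15 Foxo, PGC-1 and sirtuin regulators of mitochondrial and antioxidant genes, 5 were lower and 2 higher (median -0.12). Ppargc1a, the coactivator PGC-1alpha, read 422 and 646 in knockout arrays, against 1888 and 1798 in control arrays (-1.79 ± 0.19), called with all 5 of its probe sets. Ppara, a nuclear receptor of fatty acid and peroxisomal genes, fell by 0.77 ± 0.14 on the log2 scale. Both were steady. Foxo1 (-0.58 ± 0.12), the nuclear receptor Ppard (-0.55 ± 0.15) and the mitochondrial deacetylase Sirt3 (-0.44 ± 0.11) were lower without being steady. Only 1 of the 4 Foxo1 probe sets and 1 of the 2 Ppard probe sets were called. The mitochondrial deacylase Sirt5 (0.49 ± 0.12) and Pprc1, a relative of Ppargc1a (0.55 ± 0.15), were higher, again not steadily.

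Cell type markers moved with the groups as well. In bulk RNA, fewer cells of a type and less RNA per cell cannot be told apart. Of 18 measured enterocyte markers 12 were called lower and 0 higher, and their summed intensity was 50.8% and 73.6% of the control mean in knockout replicates 1 and 2, against 99.8% to 100.2% in controls. This sum is weighted to bright markers: Apoa1, Fabp2, Fabp1 and Slc5a1, with differences of -0.39, -0.36, -0.64 and -0.60, made up 45.5% of it in controls. Cat followed the same order in the knockout arrays, at 32.2% and 40.8%, each below that sum. Single enterocyte markers lay on both sides of Cat: 7 of the 18 had a lower log2 difference than its -1.45, from Tmigd1 (-3.64), Lct (-3.06) and Mep1a (-2.62) to Treh (-1.51), all of them called, and the other 11 a higher one. Prdx3, at 50.7% and 44.5%, Gpx2, at 76.6% and 65.7%, and Sod2, at 96.6% and 90.8%, had the opposite order. Nfe2l2 (77.5% and 86.1%), Gpx1 (94.6% and 104.5%) and Sod1 (92.2% and 98.3%) had the same order as Cat. The order of 2 arrays is not a test. Of 9 markers of cycling cells 7 were called higher, and their sum stood at 154% and 148% of the control mean. Of 5 tuft cell markers 4 were called lower, with sums of 60.5% and 66.3%. The sum of 5 red blood cell genes, cells rich in catalase, was 65.1% and 69.2% of the control mean, with Hba-a2 alone called (-0.73 ± 0.10). Hba-a2, with a control mean of 2972.5, made up most of this sum, which was 3500.1 and 3607 in controls. The other 4 genes had differences between -0.09 and 0.26. Goblet sums were 80.1% and 92.1%, Paneth 97.7% and 102%, immune 91.4% and 101%, and mesenchyme 94.8% and 82.5%. Of these lists, called lower were 2 of 8 goblet, 0 of 4 Paneth, 2 of 11 immune and 2 of 10 mesenchyme genes, and called higher were Mmp7 (Paneth) and Tagln (mesenchyme). No marker read 0, and the dimmest value was 35.5 for Cd79a. The part of these shifts in the differences of Cat, Prdx3 and the other genes was not tested.

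**Figure D4:**
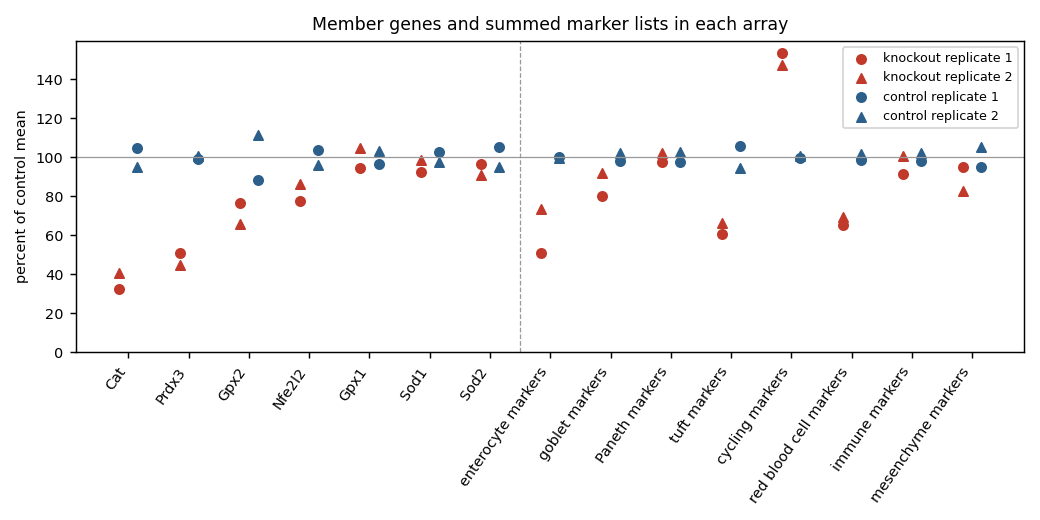
Member genes (brightest probe set) and summed marker lists in each array as percent of the control mean, knockout left of control. Cat at 32.2% and 40.8% lies below the enterocyte sums of 50.8% and 73.6%, which bright markers dominate, while 7 of the 18 single enterocyte markers lay further below control than Cat. Cycling markers lie at 154% and 148% in knockout arrays.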

How the data were processed

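RNA of 2 knockout and 2 control crypt samples was hybridised to Affymetrix arrays, per the labels' protocols. The authors deposited 1 linear intensity for each probe set and array. How these were summarised, background-corrected and normalized is something the sources used here do not state. The floor was 1, reached by 16 to 27 probe sets an array, and array medians lay between 138.74 and 142.9, so no scaling was added. The number of arrays limits the precision. Groups came from the titles.

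Gene names came from the platform annotation held by GEO, brought up to date by Entrez ID with a RefSeq table (GRCm38.p6, names only): of 45101 probe sets, 34945 had 1 gene, 932 several, 9160 no listed gene, and 64 were array controls, which were left out. Differences were tested with limma 3.58.1 (lmFit and eBayes without a block; R 4.3.3) on log2(intensity + 16), once over 45037 probe sets for the members and once over 18193 genes, each by its brightest probe set, for the lists. The fit was checked on simulated data: among probe sets changed 2-fold 82.8% were recovered, among those changed 1.5-fold 7.20%. Far fewer probe sets were changed there than the 20.0% called in the real data. This makes the adjusted threshold stricter, so these shares do not carry over to the real fit. The members and gene lists were chosen with earlier results of these data known. Named were all members, up to 6 called genes a list by unadjusted p, all called genes where 5 or fewer went one way, and a fixed set of core genes. Cell type markers are given by counts and sums.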

Additional observations from a re-analysis of the deposited data

How the results depend on the processing

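The calls of both Cat probe sets and of Prdx3 held, in the same direction, under each of the 11 alternatives: pseudocounts of 1 and 64, probe sets with a mean under 64 left out, quantile normalization, division by array medians, a trended and robust prior, the replicate number as a block, and each array left out. No Gpx1, Sod1 or Sod2 probe set was called under any of them. Of the others, the 2 brighter Txnrd2 probe sets and the dimmest one were not called under any of them either, and the rest lay near the threshold. The called Txnrd2 probe set lost its call with a pseudocount of 1 (-0.40), quantile normalization (-0.35), median scaling (-0.36) and the trended prior (-0.35), and ranged from -0.42 to -0.29 without 1 array. Gpx2 was called with dim probe sets left out (-0.48), median scaling (-0.49) and the trended prior (-0.48), and ranged from -0.65 to -0.32 without 1 array. The dimmer Nfe2l2 probe set was called with dim probe sets left out (-0.45), with the trended prior (-0.45) and with the replicate block (-0.45), and ranged from -0.59 to -0.30 without 1 array; the brighter one was called with the trended prior (-0.29). The causes were not tested.

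Without 1 array, counts over all probe sets ranged from 2056 to 4629 higher and 1949 to 3908 lower, over genes from 1139 to 2293 higher and 1032 to 2046 lower, and over the lists from 15 to 26 higher and 26 to 52 lower. A lone array of a group was assumed to vary like the other group. The causes of these shifts were not tested. Whether same-numbered arrays were paired, for example by litter or day, is not stated in the sources used here. Their deviations from the group means correlated at 0.096 over probe sets. With so few arrays a group, this value cannot decide whether they were paired. With the replicate block limma called 5425 probe sets higher and 4536 lower, and 0 higher and 5 lower among the 20 members. Dim signals limit Txnrd2 most, at 75.0 to 166 against a background of 31.9 to 35.6.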
